A study of Homo sapiens with 6 samples.

Results

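DNA replication and S phase genes were followed in breast cancer cells depleted of the long intergenic non-coding RNA LincIN. The set was a list of 51 genes for origin licensing, the replicative helicase, the polymerases, nucleotide supply and replication-linked repair. Probe sets were taken by gene symbol, with the probe set of highest mean over the 6 arrays standing for its gene. Of the 51 genes, 33 had a probe set with a single named gene, out of 14884 named genes in all. The other 18 were not analysed here: ORC1, ORC6, GMNN, POLA1, PRIM1, POLE2, POLD3, RFC2, RFC3, RFC4, LIG1, RPA2, TK1, HELLS, CHAF1B, BRCA1, BRCA2 and BLM. Genes with a probe set of a single named gene are called measured below. No member of the polymerase and primase group was among them.

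Replication origins are licensed in G1, when ORC, CDC6 and CDT1 load the MCM2 to MCM7 ring onto DNA as an inactive helicase. On entry into S phase the CDC7 kinase and cyclin E with its kinase turn the ring on by bringing in CDC45 and the GINS complex, and PCNA then clamps the polymerases to the template. Most of these genes are transcribed at the G1/S boundary under the E2F factors, so their messenger RNAs serve as markers of proliferating cells.

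RNA was taken from cells of the triple-negative breast cancer line MDA-MB-231. The paper made its stable hairpin and vector lines in a luciferase-carrying derivative, MDA-MB-231-Luc-D3H1. For the transcriptome work it names MDA-MB-231 without the derivative. Cells of the vector group stably carried an empty GFP vector, and cells of the shRNA1 and shRNA2 groups stably carried 1 of 2 short hairpin RNAs against LincIN. Each of the 3 groups had 2 Affymetrix Human Gene 2.0 ST arrays, and the series text states that RNA came from 2 independent experiments. Whether each line was a single clone or a pool was not given in the sources used here. The title of the series names p21, a protein that holds cells back from S phase, and the comparison asked how the replication genes stood in knockdown cells. LincIN itself and the p21 gene CDKN1A were not analysed here, so the knockdown could not be checked and the groups rest on the labels.

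Values were log2 signals from the authors' RMA normalization, with array medians between 6.12 and 6.30 and correlations between arrays from 0.961 to 0.988. The files carry no detection call. Of the marker genes of the line, 5 of 6 mesenchymal and 5 of 7 luminal or epithelial genes were measured. The mesenchymal genes read 11.16 to 11.45 (VIM), 12.66 to 13.14 (AXL), 10.60 to 11.45 (CD44), 8.25 to 8.98 (ZEB1) and 6.78 to 7.27 (ZEB2). The luminal or epithelial genes read 5.71 to 6.17 (ESR1), 4.65 to 4.93 (PGR), 7.78 to 9.02 (GATA3), 7.46 to 9.02 (EPCAM) and 9.38 to 10.33 (KRT19). A difference of 1 on this scale is a doubling of signal. In RNA from whole cultures, fewer cells in S phase and less RNA per cell cannot be told apart.

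To show what the members share at the DNA level, their promoters were searched for the E2F words TTTGGCGC, TTTCCCGC, TTTGCCGC and TTTCGCGC on either strand, in the RefSeq windows (GRCh38.p14) from 250 bases before to 50 bases after each gene start. A window was at hand for 29 of the 33 measured members. Of these, 20 held at least 1 of the words, or 69% against 3.99% of the 27305 genes with a window. The CHR words TTTGAA and TTCGAA, linked to G2 and M phase genes, were found in 4 of the 29 (13.8%), against 19.5% of all genes. A match is a run of letters and not a measured binding site. The following 28-base stretches are shown for members that the results turn on, written 5′ to 3′ on the strand of the gene, with the matched word in capitals (its reverse complement where the word lies on the other strand).
MCM7 (chr7:100101389-100101416, minus strand): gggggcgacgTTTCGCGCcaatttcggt
MCM6 (chr2:135876516-135876543, minus strand): attggtcaggTTTGGCGCgaaatctcca
E2F1 (chr20:33686388-33686415, minus strand): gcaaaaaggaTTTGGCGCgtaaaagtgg
CDC6 (chr17:40287876-40287903, plus strand): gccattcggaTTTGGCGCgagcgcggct
UHRF1 (chr19:4909974-4910001, plus strand): ccgagcccgaTTTCGCGCgccctgagtt
PCNA (chr20:5126664-5126691, minus strand): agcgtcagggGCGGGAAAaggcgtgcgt
GINS2 (chr16:85688968-85688995, minus strand): tctcgccgtgGCGGGAAAacggcggccg
TIPIN (chr15:66356734-66356761, minus strand): cccgcacggaTTTGGCGCcaaacgctgc

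MCM6, E2F1, CDC6 and TIPIN carried the same word, TTTGGCGC, while their signals differed from vector in unlike ways: both knockdown groups lay above vector for MCM6 and E2F1 and below it for CDC6, and for TIPIN the groups overlapped. Over the 20 members with an E2F word the median log2 difference from vector was 0.25 for shRNA1 and 0.30 for shRNA2. Over the 9 with a window but no such word it was 0.22 and 0.30. Over the 4 measured members without a window it was 0.49 and 0.31.

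Directions follow the array labels, knockdown minus vector. The gene list that accompanies the study names its ratio in the same order but runs the opposite way for genes that could be set against these arrays, and it holds none of the members. In the plot of deviations from each gene's mean, the first vector array was low for most members and no array was high for all of them. The members' median deviation was -0.29 in vector replicate 1 and 0.04 in vector replicate 2. It was -0.01 and 0.18 in the shRNA1 arrays and 0.02 and 0.19 in the shRNA2 arrays.

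**Figure D1:**
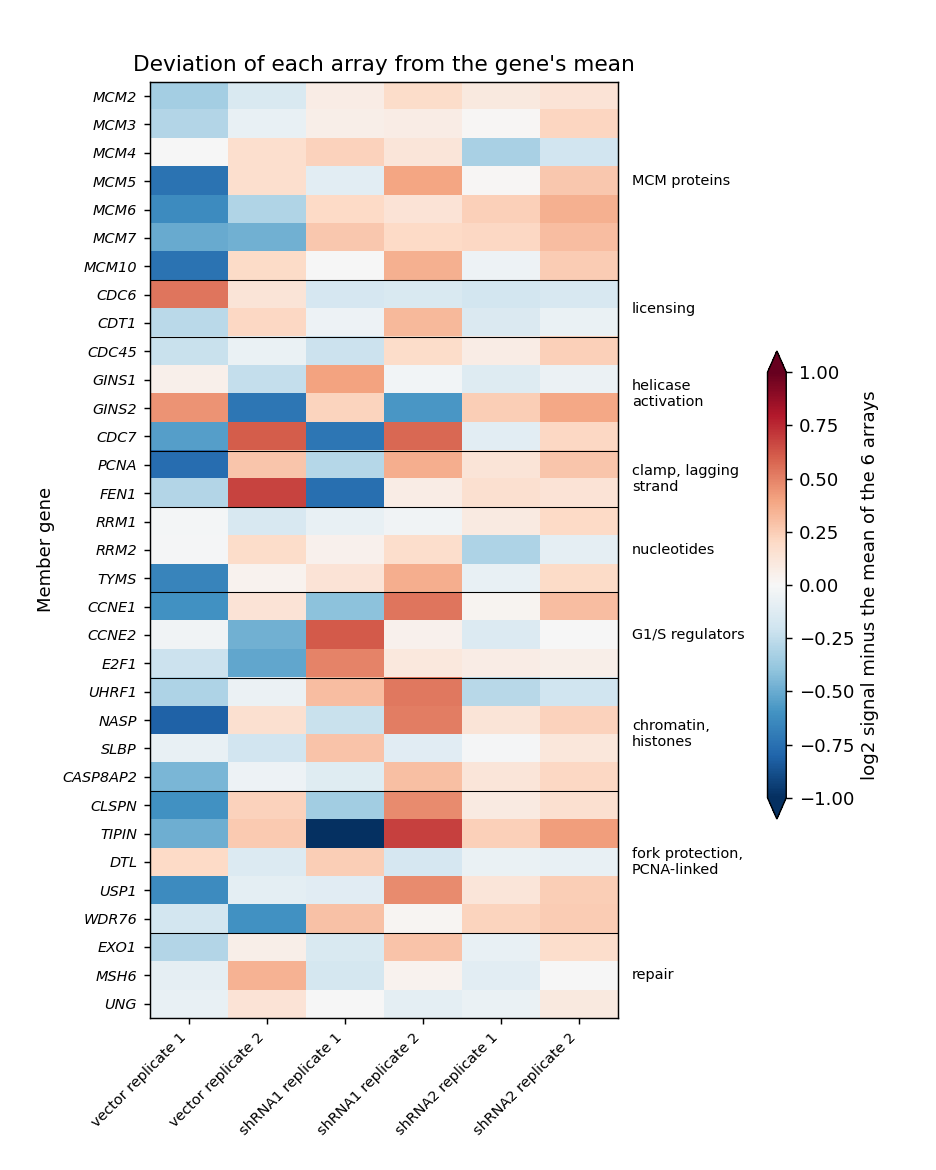
Heat map of the 33 measured members (vertical axis, grouped by role) in the 6 arrays (horizontal axis), coloured by log2 signal minus the gene's mean over the arrays, with colours ending at 1 on either side. Vector replicate 1 is the lowest array for 17 of the 33 members.

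Most members read higher in knockdown than in vector cells by amounts that the spread between arrays did not let pass the test. In the limma fit without pairs MCM7 was the exception, with shRNA2 only. Without vector replicate 1 the members' median with shRNA1 lay near that of all probe sets, as given below. For shRNA1 the median difference of the members was 0.25, against 0.05 over the 16098 probe sets tested, and 26 of 33 lay above 0 (78.8%, against 58.9% of all). For shRNA2 it was 0.30, against -0.04, and 23 lay above 0 (69.7%, against 44.1%). At an adjusted p of 0.05 (limma, Benjamini-Hochberg over all probe sets tested) no member was called with shRNA1, where 0.497% of all probe sets were called higher and 1.37% lower. With shRNA2, 1 member was called higher and none lower, where 1.07% and 1.5% of all were called. In the fit that treats equal replicate numbers as pairs, 1 member was called higher with shRNA1 and 2 with shRNA2 (1.02% and 3.15% of all), and none was called lower (2.3% and 4.18% of all). At an unadjusted p under 0.05, 7 members were higher and 1 lower with shRNA1 (6% and 6.08% of all), and 4 were higher and 1 lower with shRNA2 (7.49% and 11.1% of all). The knockdown groups share the 2 vector arrays, so their differences from vector are not independent of each other.

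Members were also counted by whether the groups overlapped. Both shRNA1 arrays lay above both vector arrays for 9 members, or 27.3% against 21.7% of all probe sets: MCM2, MCM3, MCM6, MCM7, TYMS, CCNE2, E2F1, UHRF1 and WDR76. Both lay below for CDC6 alone, where 15% of all probe sets did so. Both shRNA2 arrays lay above both vector arrays for 11 members, or 33.3% against 21.6% of all: MCM2, MCM3, MCM6, MCM7, CDC45, RRM1, E2F1, SLBP, CASP8AP2, USP1 and WDR76. They lay below for MCM4, CDC6 and RRM2, or 9.09% against 30.6% of all.

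Taken within replicate numbers, which were read as pairs, the members' median difference with shRNA1 was 0.34 for replicate 1 and 0.23 for replicate 2, against 0.10 and -0.01 over all probe sets. With shRNA2 it was 0.31 and 0.16, against -0.04 for each number over all probe sets. With shRNA1, 22 members were higher in both pairs (66.7%, against 38.2% of all) and 4 lower in both (25.4% of all). With shRNA2, 19 were higher in both (57.6%, against 27.5% of all) and 4 lower in both (37.5% of all). Leaving out a single vector array breaks a pair. Without vector replicate 1 the members' median difference of group means was 0.051 for shRNA1, against 0.044 over all probe sets. For shRNA2 it was 0.036, against -0.042. Without vector replicate 2 the members' median was 0.36 for shRNA1 and 0.41 for shRNA2, against 0.049 and -0.046. The part of either vector array in the differences was not tested.

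**Figure D2:**
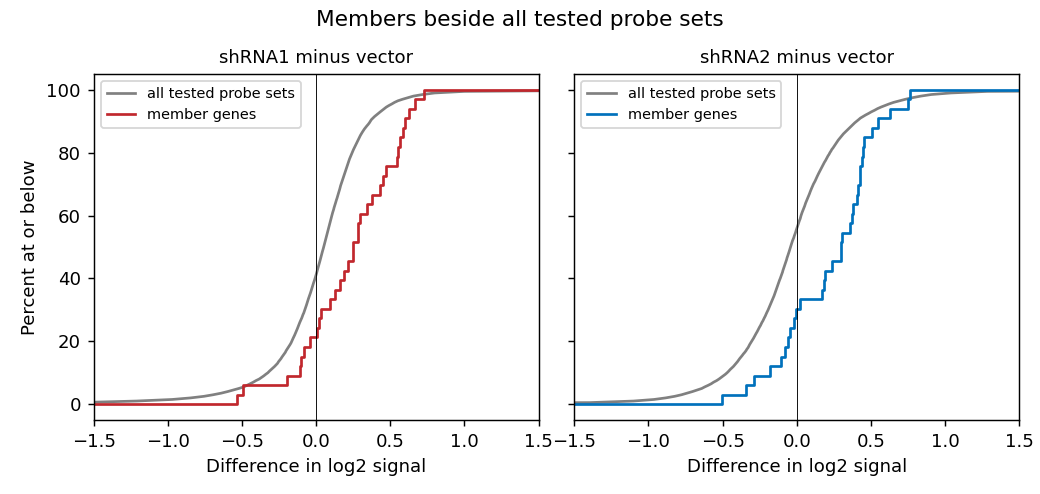
Percent of members (coloured steps, 33 genes) and of all 16098 tested probe sets (grey) at or below each log2 difference from vector, for shRNA1 on the left and shRNA2 on the right. The member curves lie to the right of the grey curves over most of the range, with medians of 0.25 against 0.05 and 0.30 against -0.04.

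Among the MCM proteins, MCM7 rose with shRNA2 and the group mean lay above vector for 7 of 7 genes with shRNA1 and 6 of 7 with shRNA2. MCM7, a subunit of the hexameric helicase, read 10.59 and 10.62 in vector, 11.37 and 11.29 in shRNA1 and 11.30 and 11.41 in shRNA2. All 4 knockdown arrays lay above both vector arrays, and the vector arrays differed little. The log2 difference was 0.75 ± 0.14 (SE of the joint limma fit, 2 arrays per group) with shRNA2, a 1.68-fold higher signal with an adjusted p of 0.0471. With shRNA1 it was 0.73 ± 0.14, 1.65-fold, and missed the threshold at an adjusted p of 0.0624. When limma took the replicate numbers as a block, its adjusted p was 0.0398 for shRNA1 and 0.0245 for shRNA2. The call for shRNA2 was lost when any 1 of the 6 arrays was left out, with adjusted p-values from 0.0571 to 0.386.

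MCM6, another subunit of the ring, read 9.82 and 10.15 in vector, 10.64 and 10.58 in shRNA1 and 10.68 and 10.80 in shRNA2. The knockdown arrays again lay above both vector arrays. The difference was 0.63 ± 0.17 with shRNA1 (adjusted p 0.160) and 0.76 ± 0.17 with shRNA2 (adjusted p 0.0681). Only with the replicate block did MCM6 pass for shRNA2, at an adjusted p of 0.029 in limma.

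The remaining subunits did not pass in either comparison. MCM2 read 9.34 and 9.53 in vector, 9.75 and 9.86 in shRNA1 and 9.78 and 9.81 in shRNA2, with differences of 0.37 and 0.36 and no overlap. MCM3 differed by 0.25 and 0.30, also without overlap. MCM5 and MCM10, a factor that helps to activate the loaded helicase, differed by 0.43 and 0.45 with shRNA1 and by 0.43 and 0.38 with shRNA2, but in both genes vector replicate 1 stood 0.90 and 0.93 below vector replicate 2. MCM4 stood apart from the other subunits with shRNA2: it read 10.58 and 10.76 in vector, 10.82 and 10.71 in shRNA1 and 10.27 and 10.40 in shRNA2. Its difference was 0.09 with shRNA1 and -0.34 with shRNA2.

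**Figure D3:**
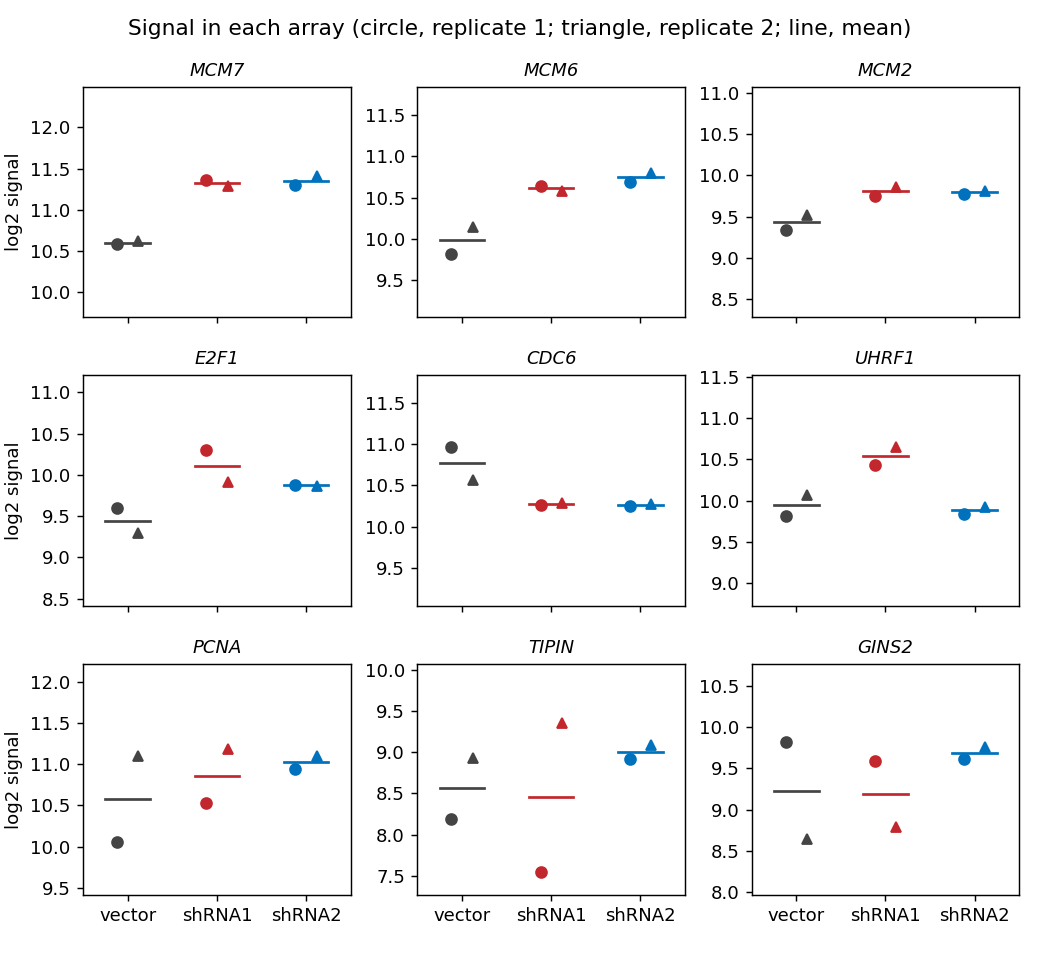
The log2 signal of 9 members in each array, with circles for replicate 1, triangles for replicate 2 and lines for the group means; each panel has its own vertical range. MCM7, MCM6, MCM2 and E2F1 separate the knockdown arrays from vector, CDC6 lies the other way, and PCNA, TIPIN and GINS2 spread as much within vector or shRNA1 as between groups.

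Of the licensing factors, CDC6 was the one member below both vector arrays with each hairpin. CDC6, the ATPase that works with ORC to load the MCM ring, read 10.97 and 10.57 in vector, 10.27 and 10.29 in shRNA1 and 10.25 and 10.28 in shRNA2. The 4 knockdown arrays lay within 0.033 of each other, while the vector arrays differed by 0.40. The difference was -0.49 ± 0.18 with shRNA1 (adjusted p 0.309 in limma) and -0.50 ± 0.18 with shRNA2 (adjusted p 0.186), so neither passed. CDT1, the partner that brings the ring to the origin, read 8.45 and 8.93 in vector, 8.67 and 9.04 in shRNA1 and 8.58 and 8.65 in shRNA2. Its groups overlapped, with differences of 0.16 and -0.08.

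The helicase activation genes gave no call and no common direction. CDC45, which rides with the active helicase, read 8.83 and 8.99 in vector, 8.84 and 9.24 in shRNA1 and 9.13 and 9.29 in shRNA2. It lay above both vector arrays only in shRNA2, with a difference of 0.30 ± 0.18. GINS2, a subunit of the GINS complex, read 9.82 and 8.64 in vector, 9.59 and 8.79 in shRNA1 and 9.61 and 9.76 in shRNA2. Its second array was the low one in vector and shRNA1 but not in shRNA2, and the difference was -0.04 with shRNA1 and 0.45 ± 0.40 with shRNA2. GINS1 differed by 0.28 with shRNA1 and by less than 0.01 with shRNA2. CDC7, the kinase that fires origins, differed by -0.10 and 0.02, while its vector arrays lay 1.16 apart.

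PCNA and FEN1, the measured genes of the clamp and of lagging strand processing, did not pass, and their vector arrays lay 1.04 and 0.97 apart. PCNA, the sliding clamp, read 10.06 and 11.09 in vector, 10.53 and 11.18 in shRNA1 and 10.95 and 11.09 in shRNA2. Vector replicate 1 was the low array, and the difference was 0.28 ± 0.35 with shRNA1 and 0.45 ± 0.35 with shRNA2. FEN1, the nuclease that trims Okazaki fragment flaps, read 8.31 and 9.28 in vector, 7.85 and 8.67 in shRNA1 and 8.76 and 8.73 in shRNA2. Its difference of -0.53 ± 0.36 with shRNA1 was the lowest among the members, with an adjusted p of 0.665 in limma, and with shRNA2 it was -0.05. By replicate number FEN1 differed by -0.46 and -0.61 with shRNA1, the same direction in both pairs, and by 0.45 and -0.55 with shRNA2.

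For nucleotide synthesis there was no call, and with shRNA2 the subunits of ribonucleotide reductase lay on opposite sides of vector. TYMS, which makes the thymidine nucleotide, read 11.10 and 11.80 in vector, 11.90 and 12.13 in shRNA1 and 11.69 and 11.95 in shRNA2. Only the shRNA1 arrays cleared both vector arrays, with a difference of 0.56 ± 0.25 against 0.37 ± 0.25 with shRNA2. RRM2, the S phase subunit of ribonucleotide reductase, read 9.98 and 10.18 in vector, 10.04 and 10.17 in shRNA1 and 9.68 and 9.90 in shRNA2. Its difference was 0.02 with shRNA1 and -0.29 ± 0.16 with shRNA2, where both arrays lay below both vector arrays. RRM1, the large subunit, differed by 0.03 with shRNA1 and by 0.23 ± 0.15 with shRNA2, where both arrays lay above both vector arrays.

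The G1/S regulators all lay above vector on average, with medians of 0.59 and 0.41 over 3 genes and no call. E2F1, the transcription factor that drives the G1/S program, read 9.60 and 9.29 in vector, 10.30 and 9.92 in shRNA1 and 9.88 and 9.86 in shRNA2. All 4 knockdown arrays lay above both vector arrays. The difference was 0.67 ± 0.19 with shRNA1 (adjusted p 0.190 in limma) and 0.43 ± 0.19 with shRNA2 (adjusted p 0.293). CCNE2, which encodes cyclin E2, read 10.13 and 9.68 in vector, 10.77 and 10.20 in shRNA1 and 10.02 and 10.16 in shRNA2. The shRNA1 arrays cleared the vector arrays, with a difference of 0.59 ± 0.24, while the shRNA2 arrays overlapped them, with a difference of 0.19 ± 0.24. CCNE1, for cyclin E1, differed by 0.30 and 0.41 with overlap in each case.

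In the chromatin and histone supply group, UHRF1 read higher in both shRNA1 arrays than in both shRNA2 arrays. That difference between hairpins did not pass the test (adjusted p 0.163 in limma), and 32.2% of all probe sets lay that way. UHRF1, which brings DNA methyltransferase to newly copied DNA, read 9.82 and 10.06 in vector, 10.43 and 10.65 in shRNA1 and 9.84 and 9.92 in shRNA2. Both shRNA1 arrays lay above the other 4, which overlapped. The difference was 0.60 ± 0.17 with shRNA1 (adjusted p 0.177 in limma) and -0.06 ± 0.17 with shRNA2.

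NASP, a chaperone of histone H1 and H3, read 8.79 and 9.76 in vector, 9.38 and 10.12 in shRNA1 and 9.73 and 9.84 in shRNA2. The first vector array was the lowest of the 6, and the differences were 0.47 ± 0.35 and 0.51 ± 0.35. By replicate number they were 0.59 and 0.35 with shRNA1 and 0.94 and 0.07 with shRNA2, while without vector replicate 1 the difference of group means was -0.02 for shRNA1. CASP8AP2, a factor needed for histone gene expression, read 8.30 and 8.71 in vector, 8.63 and 9.06 in shRNA1 and 8.87 and 8.96 in shRNA2. Only the shRNA2 arrays cleared the vector arrays, with a difference of 0.42 ± 0.21. SLBP, which binds the stem-loop of histone messages, differed by 0.22 and 0.18.

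The fork protection and PCNA-linked genes held WDR76 and USP1 above vector and the widest spread of any member, in TIPIN, with no call. WDR76, a WD-repeat protein, read 10.53 and 10.10 in vector, 11.00 and 10.74 in shRNA1 and 10.93 and 10.97 in shRNA2. All 4 knockdown arrays lay above both vector arrays, with differences of 0.55 ± 0.19 (adjusted p 0.298 in limma) and 0.63 ± 0.19 (adjusted p 0.142). USP1, the protease that removes ubiquitin from PCNA, read 10.64 and 11.18 in vector, 11.16 and 11.75 in shRNA1 and 11.40 and 11.52 in shRNA2. It cleared the vector arrays only in shRNA2, and each difference was 0.54 ± 0.25.

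TIPIN, which holds the fork protection complex together with Timeless, read 8.19 and 8.93 in vector, 7.55 and 9.36 in shRNA1 and 8.91 and 9.09 in shRNA2. The shRNA1 arrays lay 1.81 apart, the widest gap of any member in a group, and enclosed all other arrays. The difference was -0.11 ± 0.54 with shRNA1 and 0.44 ± 0.54 with shRNA2. CLSPN, the checkpoint mediator claspin, differed by 0.25 and 0.31, and its second, dimmer probe set by -0.23 and -0.02. DTL, the adaptor of the ubiquitin ligase that removes CDT1 in S phase, differed by 0.01 and -0.10.

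The replication-linked repair genes lay close to vector on average, with medians of -0.08 and -0.02 over 3 genes. EXO1, a nuclease of mismatch repair, read 9.46 and 9.82 in vector, 9.61 and 10.05 in shRNA1 and 9.69 and 9.94 in shRNA2, with differences of 0.19 and 0.17. MSH6, part of the mismatch sensor, read 9.32 and 9.76 in vector, 9.24 and 9.45 in shRNA1 and 9.31 and 9.41 in shRNA2, with differences of -0.20 and -0.18. Both genes overlapped between groups. UNG, which removes uracil from DNA, differed by -0.08 and -0.02. The interval of the UNG difference with shRNA1 reached from -0.45 to 0.29. With 2 arrays a group, any difference within those bounds, 0 included, remained compatible with the values.

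**Figure D4:**
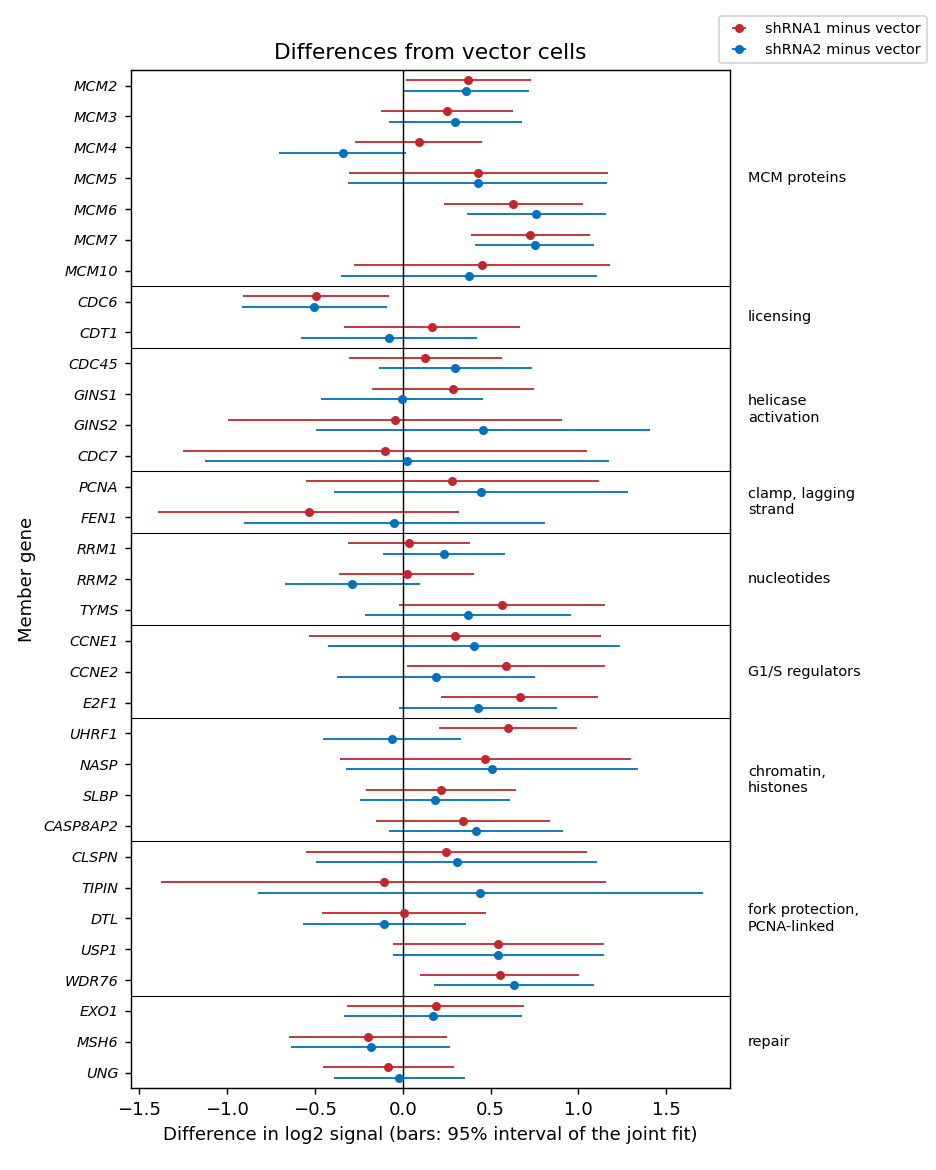
Log2 difference from vector of each member for shRNA1 (red) and shRNA2 (blue), with bars for the 95% interval of the joint fit, not adjusted for the number of probe sets. The intervals of MCM2, MCM6, MCM7 and WDR76 lie above 0 and those of CDC6 below 0 with both hairpins, and TIPIN and CDC7 have wide intervals.

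Set against each other, the hairpins gave no member that passed the test. With shRNA2 against shRNA1 the members' median difference was 0.01, against -0.08 over all probe sets, and no member was called (0% of all probe sets were called higher and 0.00621% lower). At an unadjusted p under 0.05, none was higher and 2 were lower, MCM4 and UHRF1, where 5.42% and 10.2% of all were. With the replicate block limma called no member either, where 1.04% of all probe sets were called higher and 1.26% lower. UHRF1 had the lowest difference, -0.66 ± 0.17 (adjusted p 0.163), and its shRNA2 arrays lay below both shRNA1 arrays. TIPIN had the highest, 0.55 ± 0.54, with overlap (adjusted p 0.667). For TIPIN the sign rested on shRNA1 replicate 1, without which the difference was -0.36. The shRNA2 arrays lay above both shRNA1 arrays for 4 members and below them for 7, where 18% and 32.2% of all probe sets did so. For MCM7 the hairpins differed by 0.02, with an interval from -0.31 to 0.36.

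The 2 arrays of a group also differed from each other, with the widest gaps in vector and shRNA1. The second array read higher than the first for 24 of 33 members in vector, 22 in shRNA1 and 30 in shRNA2, where 48.6%, 36.5% and 52% of all probe sets did so. It was higher in all 3 groups for 19 members, against 16.8% of all probe sets, and lower in all 3 for E2F1 and DTL, against 22%. Members lay over 0.5 apart between the replicates for 12 genes in vector and 10 in shRNA1 (15.8% and 17.7% of all). In shRNA2 none did (4.26% of all). The median absolute gap of the members was 0.41 in vector, 0.40 in shRNA1 and 0.12 in shRNA2, against 0.22, 0.24 and 0.12 over all probe sets.

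The widest gaps in vector were those of CDC7, upward, and GINS2, downward, and the widest upward gap in shRNA1 was that of TIPIN, given above. CDC7 lay higher in the second array by 1.16 in vector and 1.30 in shRNA1, and by 0.31 in shRNA2. PCNA did so by 1.04, 0.65 and 0.15. GINS2 went the other way in vector and shRNA1, lower by 1.18 and 0.80, while in shRNA2 it was higher by 0.15. GINS1, CCNE2, SLBP and WDR76 shared this pattern of a lower second array in vector and shRNA1 but not in shRNA2. The first vector array was the lowest of the 6 for 17 members, where 18% of all probe sets had their lowest value, and shRNA1 replicate 2 was the highest for 14, against 12.7% of all. No label ties an array to a scan, an extraction or an experiment, and which of these moved with the replicate number was not tested.

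**Figure D5:**
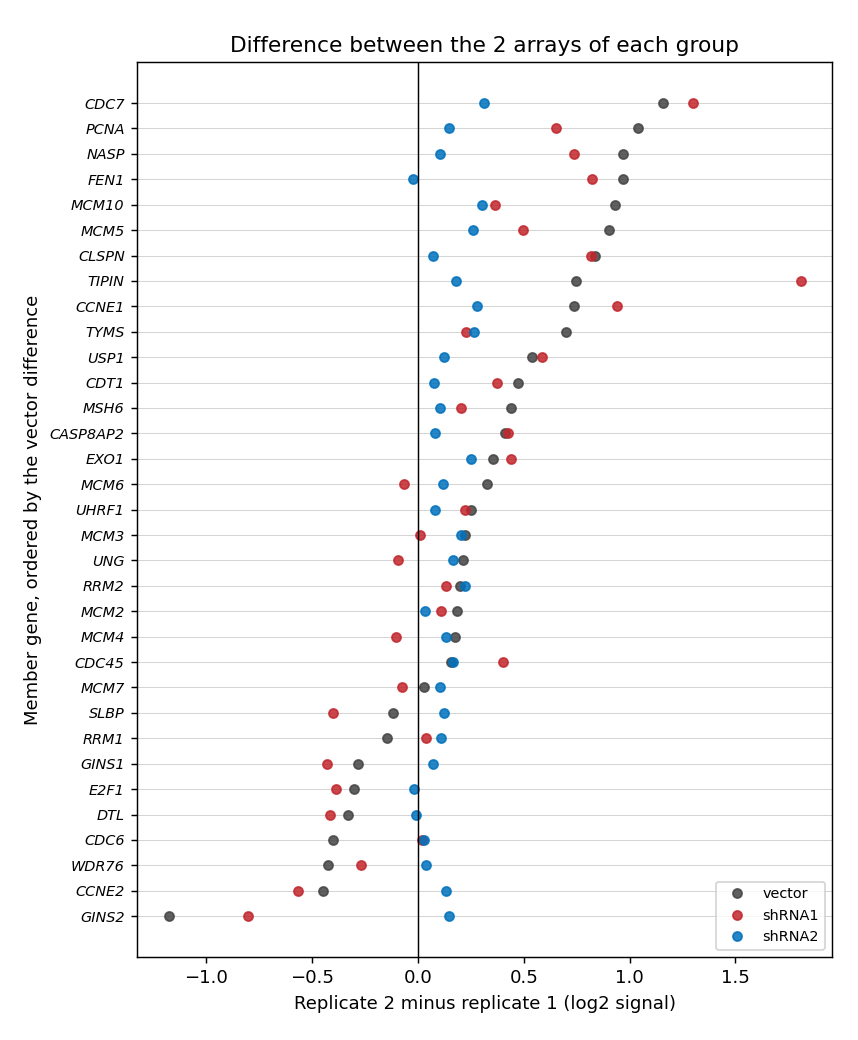
Replicate 2 minus replicate 1 in log2 signal for each member (vertical axis, ordered by the vector difference), in vector (grey), shRNA1 (red) and shRNA2 (blue). Points reach from -1.18 to 1.81 in vector and shRNA1 and stay between -0.02 and 0.31 in shRNA2.

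Other replication genes were counted from a list of 44 that held none of the members, of which 21 were measured. With shRNA1 none was called (0.497% of all probe sets were called higher and 1.37% lower) and the median difference was 0.09, against 0.05 over all. With shRNA2 DBF4 was called higher (1.07% of all), none was called lower (1.5% of all), and the median was -0.09, against -0.04 over all. DBF4, the activating subunit of the CDC7 kinase, read 9.25 and 9.25 in vector, 9.67 and 10.22 in shRNA1 and 10.27 and 10.36 in shRNA2. All knockdown arrays lay above vector, and the difference was 1.07 ± 0.20 with shRNA2 (adjusted p 0.0468 in limma) and 0.70 ± 0.20 with shRNA1 (adjusted p 0.196). The DBF4 call held in 2 of 6 fits that left out 1 array, with adjusted p-values from 0.0235 to 0.355. With the replicate block ASF1A, a histone chaperone, and RRM2B, the p53-inducible ribonucleotide reductase subunit, also passed as higher with shRNA2, at adjusted p-values of 0.026 and 0.0309, and GINS4, a subunit of the GINS complex, as lower, at 0.0449. In that fit 3.15% of all probe sets were called higher and 4.18% lower.

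Of 32 G1/S regulators and CDK inhibitors, 22 were measured. The only CDK inhibitor among them was CDKN2A, which read 5.49 to 5.77, below the array medians. CDKN1A, CDKN1B, CDKN1C, CDKN2B, CDKN2C and CDKN2D had no probe set with a single named gene and were not analysed here. With shRNA1 none of the 22 was called (0.497% of all probe sets were called higher and 1.37% lower). The median was 0.07, against 0.05 over all. With shRNA2 none was called either (1.07% and 1.5% of all), and the median was 0.15, against -0.04 over all. The largest mean differences were in MYBL2, an E2F target that takes part in later cell cycle transcription, and E2F7, a repressor of E2F targets. MYBL2 read 9.44 and 9.66 in vector, 10.23 and 10.06 in shRNA1 and 10.06 and 10.19 in shRNA2. Both knockdown groups lay above vector, with differences of 0.60 ± 0.16 and 0.58 ± 0.16 (adjusted p 0.167 and 0.117 in limma). E2F7 read 11.62 and 11.18 in vector, 10.92 and 10.68 in shRNA1 and 10.91 and 10.75 in shRNA2. Both groups lay below vector, with differences of -0.60 ± 0.20 and -0.57 ± 0.20 (adjusted p 0.260 and 0.182).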

How the data were processed

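The authors deposited log2 signals made with the Affymetrix Expression Console and RMA (background correction, quantile normalization and probe set summary), starting from 250 ng of RNA per array; no version was given in the sources used here. Of 53617 probe sets, the 16098 paired with exactly 1 gene symbol were tested and 37519 were not. The 3 group means were fitted together over 6 arrays with limma 3.58.1 in R 4.3.3 (lmFit, eBayes; 3 residual and 4.16 prior degrees of freedom), two-sided, with Benjamini-Hochberg adjustment over all tested probe sets and a threshold of 0.05. The script was tested on simulated data. P-values measure the spread between these arrays of 1 line per group.

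The members and gene lists were chosen with earlier results of these data known, so no test over a list was made. Named in full were members called in either fit, the 2 with the largest mean absolute differences from vector in each of the 9 role groups with measured members, and the extremes of each comparison. MCM2, MCM4 and other members were named within their group's range.

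The replicate numbers are in the labels, and the series text states 2 independent experiments. The gap between the 2 arrays of a group was correlated between groups over all tested probe sets. The correlations were 0.626 (vector with shRNA1), 0.145 (vector with shRNA2) and 0.150 (the hairpins). The numbers were read as pairs in every group, but for shRNA2 this reading rests on the labels. A second fit blocked on the numbers, with 2 residual degrees of freedom and 6.43 prior ones, and is given where it changed a call. Its calls for shRNA2 depend on that reading of the labels. In all, 15 alternatives were run. Promoter windows came from RefSeq tables and were searched with Python 3.11.15.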

Additional observations from a re-analysis of the deposited data

How the results depend on the processing

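With 2 arrays a group, calls depended on single arrays and on the error model. The count of members called with shRNA1 was 0, and it was 1 (MCM7, adjusted p 0.0482 in limma) when dim probe sets were dropped and again 1 with the replicate block. With shRNA2 it was 1 and became 2 with the replicate block. It was 0 in a pairwise limma fit of the 4 arrays compared (MCM7, adjusted p 0.0571) and with all probe sets tested (0.115). An equal-variance t-test of each probe set, adjusted by Benjamini-Hochberg, also gave 0 (MCM7, adjusted p 0.242). The paper names BRB-ArrayTools without a model for its array tests. The MCM7 call also depended on single arrays, as given above. Leaving out arrays moved the members' median from 0.051 to 0.42 for shRNA1, from 0.036 to 0.41 for shRNA2 and from -0.12 to 0.093 for shRNA2 against shRNA1. The low ends came without vector replicate 1 for both comparisons with vector and without shRNA1 replicate 1 between hairpins. In those fits the median of all probe sets was 0.044 for shRNA1, -0.042 for shRNA2 and -0.025 between hairpins. Over the fits that left out 1 array, the difference reached from -0.016 to 0.96 for NASP and from -0.42 to 0.022 for MSH6 with shRNA1. It reached from -0.13 to 1.04 for GINS2 and from -0.073 to 0.97 for PCNA with shRNA2, and from -0.36 to 1.45 for TIPIN between hairpins. Leaving out an array breaks a pair of replicate numbers. In the comparisons just given, the sign reversed without vector replicate 1 for NASP and PCNA and without vector replicate 2 for MSH6 and GINS2. It also reversed without shRNA1 replicate 1 for TIPIN. Of 900 checks on 20 named members, 5 were counted as reversed, 3 gained a call, 9 lost one and 883 did none of these. A sign was counted only where the difference exceeded its standard error or was called. Smaller differences also changed sign and were not counted. With shRNA1, PCNA went from 0.28 to -0.24 without vector replicate 1, and TIPIN from -0.11 to 0.80 without shRNA1 replicate 1. Among all probe sets, calls went from 301 to 535 with shRNA1, from 414 to 1180 with shRNA2 and from 1 to 370 between hairpins with the block. They were 111 with shRNA1 in the pairwise fit, 195 with all probe sets tested and 111 to 138 with an array left out. With shRNA2 they were 139 without vector replicate 1, 150 without vector replicate 2, 7 without shRNA2 replicate 1 and 6 without shRNA2 replicate 2. The equal-variance t-test called 1, 2 and 2, and between hairpins the other alternatives gave 0 to 28. Centring arrays on their medians moved the median of all probe sets from 0.05 to -0.02 for shRNA1 and from -0.08 to 0.03 between hairpins. The causes were not tested.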

Other observations

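Of 30 mitosis genes listed, 25 were measured, and their median difference from vector was 0.37 with each hairpin, against 0.05 and -0.04 over all probe sets. None was called with shRNA1, and TTK was called higher with shRNA2, where 1.07% of all probe sets were. TTK, the spindle checkpoint kinase MPS1, read 10.13 and 10.15 in vector, 10.59 and 10.80 in shRNA1 and 10.94 and 10.92 in shRNA2. Both knockdown groups lay above vector, with differences of 0.55 ± 0.15 (adjusted p 0.171 in limma) and 0.79 ± 0.15 (adjusted p 0.0471). The TTK call held in 2 of 6 fits that left out 1 array, with adjusted p-values from 0.0495 to 0.350. With the replicate block 5 of the 25 were called higher with shRNA2 (3.15% of all probe sets) and none lower (4.18% of all): TTK, MAD2L1, HMMR, CDK1 and NDC80, with adjusted p-values from 0.0113 to 0.0468 in limma.

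The largest mean differences on this list were in MAD2L1, a spindle checkpoint protein, and CCNB1, cyclin B1. MAD2L1 read 8.88 and 9.41 in vector, 9.62 and 9.87 in shRNA1 and 10.07 and 10.24 in shRNA2. All knockdown arrays lay above both vector arrays, with differences of 0.60 ± 0.21 and 1.01 ± 0.21 (adjusted p 0.311 and 0.0593 in limma). With the replicate block the adjusted p with shRNA2 was 0.0113, past the threshold. CCNB1 read 10.10 and 11.03 in vector, 11.07 and 11.29 in shRNA1 and 11.23 and 11.40 in shRNA2. Its first vector array was 0.93 below the second, and the differences were 0.62 ± 0.29 and 0.75 ± 0.29.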
